A study of Mus musculus with 6 samples.

Results

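The chemokine and chemokine receptor genes of mouse glomeruli, the capillary filters of the kidney, were measured by RNA sequencing in animals with diabetic kidney disease. The members were all genes with a mouse symbol that starts with Ccl, Cxcl, Ccr, Cxcr, Cx3cl, Cx3cr, Xcr or Ackr and a digit. Of 22064 listed gene IDs 61 matched, 60 of these had a value, and 26 averaged at least 1 FPKM over all libraries, among 12388 genes that did so. The tested libraries were 3 of PR3 knockout mice (PR3_KO), which lack proteinase 3, the product of Prtn3 and a protease that neutrophils store in granules. They were set against 3 libraries of wild-type mice (WT). All 6 came from strain C57BL/6J with diabetic kidney disease, so that both groups carried the disease and no healthy glomeruli were compared. The age and sex of the mice, the way diabetes was brought about and the construction of the knockout allele are not stated in the labels. Nor do the labels tie each library to its own animal, and the p-values therefore reflect only the variation among these samples, which could be technical.

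Chemokines are small secreted proteins that guide leukocytes along gradients, and they are grouped by the spacing of their first cysteines into the CC, CXC, CX3C and XC families. Their receptors are G protein-coupled receptors on leukocytes and on some tissue cells, and the atypical receptors bind chemokines without the usual G protein signal and clear or store them. In the kidney, resident cells and macrophages release chemokines that draw monocytes, neutrophils and lymphocytes into the glomerulus and the interstitium.

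The inducible neutrophil attractants and Cxcl10 are classical targets of the transcription factor NF-kappaB, and their promoters are shown here because these ligands differed in how far they were detected and moved. The stretches are from RefSeq (GRCm38.p6), 5′ to 3′ on the gene's strand, with the matched motif letters in capitals. Those of the first 3 genes run from 150 bases before the transcription start to 30 after it, and the window of Cxcl10 from 250 before to 50 after.
Cxcl1, chr5:90891095-90891274, plus strand: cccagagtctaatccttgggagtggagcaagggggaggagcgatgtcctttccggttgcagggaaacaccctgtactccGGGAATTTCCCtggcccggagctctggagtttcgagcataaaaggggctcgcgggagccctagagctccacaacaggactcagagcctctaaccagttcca
Cxcl2, chr5:90903749-90903928, plus strand: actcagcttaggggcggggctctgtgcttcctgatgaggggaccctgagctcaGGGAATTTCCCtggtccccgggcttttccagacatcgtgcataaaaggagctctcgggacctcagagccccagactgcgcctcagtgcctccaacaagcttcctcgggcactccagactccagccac
Cxcl3, chr5:90785951-90786130, plus strand: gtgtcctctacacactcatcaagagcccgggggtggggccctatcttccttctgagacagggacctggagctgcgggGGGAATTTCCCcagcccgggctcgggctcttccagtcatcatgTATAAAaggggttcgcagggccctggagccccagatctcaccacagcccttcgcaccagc
Cxcl10, chr5:92348840-92349139, minus strand: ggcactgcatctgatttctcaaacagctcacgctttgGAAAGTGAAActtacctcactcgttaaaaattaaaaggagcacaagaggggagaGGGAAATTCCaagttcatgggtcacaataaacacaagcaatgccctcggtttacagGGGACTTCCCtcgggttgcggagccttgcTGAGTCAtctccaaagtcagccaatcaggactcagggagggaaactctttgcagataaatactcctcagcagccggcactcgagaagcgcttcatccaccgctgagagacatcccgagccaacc

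In Cxcl1, Cxcl2 and Cxcl3 the capitals mark the same NF-kappaB consensus letters, which read as a match on both strands, starting at -71, -97 and -73 from the start. In Cxcl3 they also mark a TATA box (TATAAA), at -30. In Cxcl10 they mark, in order, the interferon-stimulated response element core at -213, NF-kappaB letters at -159 and -103, and AP-1 letters (TGANTCA) at -74. Over all 32851 promoter windows of the same length, on both strands, the NF-kappaB consensus occurred in 4.51%, the interferon element (GAAA, any 2 bases, GAAA) in 3.44%, the AP-1 letters in 7.81%, the ETS-type PU.1 letters GAGGAAGT in 3.20% and TATAAA in 13.6%. Of the 26 tested members 21 had a window, and Cxcl16, Ccl5, Ccl4 and Ccl2 were among those without. Those 21 genes have 27 windows, some genes having several, of which 6 held the NF-kappaB letters (in Cxcl1, Cxcl2, Cxcl10, Ccl9, Ackr2 and Ccl27a), 1 the interferon element, 7 the AP-1 letters, 8 TATAAA and 0 the PU.1 letters. These are matches of letters in a short window, and the motifs were chosen with the expression values known.

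The libraries differed beyond single genes. Summed FPKM was 566772 to 604697 in PR3_KO and 494316 to 543564 in WT, and the median log2 fold change of all tested genes stood at -0.26 before and -0.00081 after scaling by the median of ratios. The most frequent value above 0 among 53 olfactory receptor genes was 0.08 FPKM in WT 1 and 0.07 FPKM in the other libraries, held by 3 to 7 of these genes per library. With values rounded to 2 decimals that value does not rank the libraries by depth. Principal component 1 took up 81.8% of the variance, where WT 2 lay farthest from the other genotype on it (57.9, against 21.3 and 31.7 for WT 1 and WT 3). Prtn3 itself was at 0.14, 0 and 0.07 FPKM in PR3_KO and 0.46, 0.21 and 0.22 FPKM in WT, too low for more than a weak check of the labels.

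Of the 26 tested members, 13 fell and 1 rose in PR3_KO (limma, Benjamini-Hochberg adjusted p under 0.05 over all 12388 genes), and 12 did not pass. The background was 41.1% of the tested genes lower and 11.7% higher, and the members' 13 of 26 is close to it. Their median log2 fold change was -0.83, beside -0.26 for all genes. After median-of-ratios scaling 11 members fell and 4 rose, beside 23.7% of all genes lower and 23.8% higher, and the members' median was -0.57. All 3 PR3_KO libraries lay below all 3 WT libraries in 16 members and above them in 1, beside 49.1% and 16.0% of all tested genes. The filter itself favours such members. Of the 26, 18 averaged at least 1 FPKM in both genotypes, 7 did so in WT only and 1 in PR3_KO only, and among the 18, 8 fell and 1 rose.

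Several cell type marker lists fell as well and others did not. Fewer cells of a type and less RNA per cell cannot be told apart in bulk tissue. All 16 tested macrophage and dendritic cell markers fell, with a summed FPKM of 197.89 to 254.04 in PR3_KO and 859 to 2317 in WT. Their most abundant genes were the antigen-presentation gene H2-Ab1 and the lysozyme gene Lyz2, and none of the 18 was at 0 throughout. Of 7 tested monocyte markers 5 fell, with sums of 49.9 to 73.8 in PR3_KO and 154 to 416 in WT. Lymphocyte markers were low, with sums of 15.9 to 21.9 in PR3_KO and 21.8 to 57.8 in WT, and 2 of 6 fell. All 15 tested endothelial markers fell (sums 1051 to 1500 in PR3_KO and 3029 to 3699 in WT). Proximal tubule markers went the other way, 12 of 16 rising, with sums of 57066.9 to 73399.9 in PR3_KO and 11029.9 to 29569.3 in WT. Of 6 parietal epithelial markers 3 rose and 2 fell, of 3 tested fibroblast markers 2 fell, and of 5 tested erythroid markers 0 passed. Of all tested genes 41.1% were lower and 11.7% higher. After median-of-ratios scaling 16 macrophage, 5 monocyte, 15 endothelial, 1 lymphocyte and 0 fibroblast markers fell, beside 23.7% of all tested genes. With it 14 proximal tubule markers rose, beside 23.8%. The part of these marker shifts in the chemokine values was not tested.

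Podocyte markers, which define the labelled tissue, were well detected, at 523.02 to 779.65 summed FPKM in PR3_KO and 900.21 to 1407.21 in WT, and 7 of 12 fell. The list for mesangial, smooth muscle and renin cells had 7 of 11 lower, with sums of 201 to 339 in PR3_KO and 446 to 715 in WT. Of 10 distal tubule and collecting duct markers 5 fell. Of all tested genes 41.1% were lower. After median-of-ratios scaling 4 podocyte, 5 mesangial list and 2 distal markers fell, beside 23.7% of all tested genes. When the mean log2 level of proximal tubule markers was added as a covariate, 0 members and 0.00% of all tested genes passed (limma), while 12 members and 1510 of all tested genes had an unadjusted p under 0.05. That score was higher in every PR3_KO library than in every WT library, so the genotype and the score cannot be told apart with these samples.

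**Figure D1:**
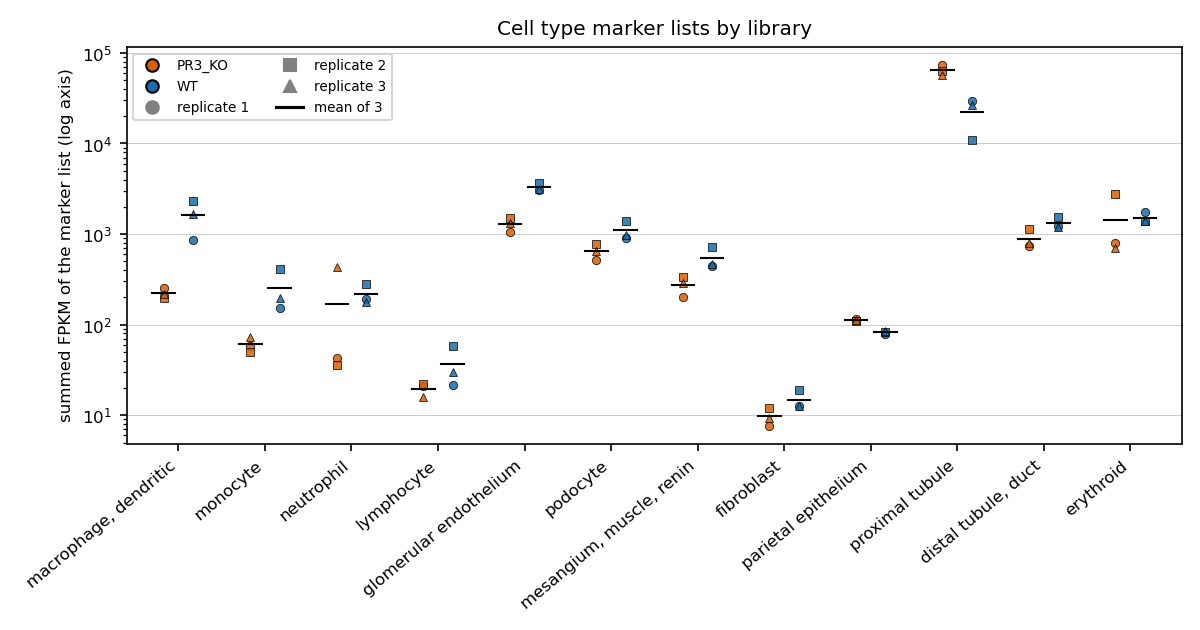
Summed FPKM of each cell type marker list on a log axis, PR3_KO (orange) left of WT (blue), 1 point per library, bar at the mean of 3. The macrophage, monocyte and endothelial sums are lower in PR3_KO, the proximal tubule sum is higher, and the neutrophil sum of PR3_KO 3 stands apart from its group.

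Receptors and ligands are described by role from here on. FPKM counts sequenced fragments per length of transcript and per size of library, so levels can be set side by side between genes. Means carry the SD of 3 libraries. Each log2 fold change is a difference of log2(FPKM + 1), PR3_KO minus WT, a scale that shrinks the change of genes with low values.

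**Figure D2:**
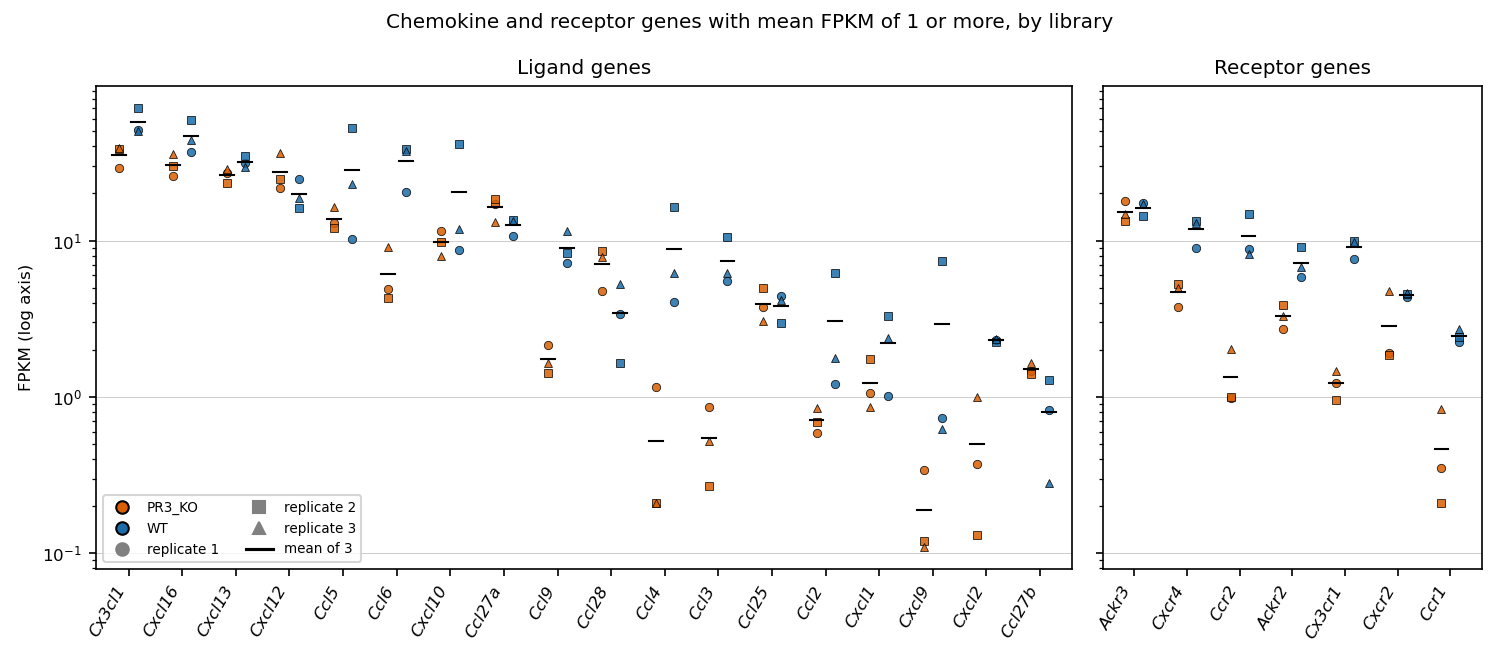
FPKM of 25 of the tested chemokine and receptor genes on a log axis, ligands left and receptors right, with PR3_KO (orange) left of WT (blue), 1 point per library and a bar at the mean of 3. The PR3_KO points of Ccr2, Cx3cr1, Ccl3, Ccl4, Ccl6 and Ccl9 all lie below the WT points, while those of Ackr3, Ccl25 and Cxcl10 overlap.

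All 8 tested receptors had lower mean FPKM in PR3_KO as deposited, where 8632 of all 12388 tested genes had a negative log2 fold change. Of the 8 receptors 6 fell (75%), beside 41.1% of all tested genes. Some of these 6, Ccr1 among them, averaged 1 FPKM or more in WT alone, so the filter favours this share. After median-of-ratios scaling 6 fell, beside 23.7% of all tested genes, and Ackr3 turned to a log2 fold change of 0.19. The falls were deepest for the receptors that monocytes and macrophages use. Ccr2, which monocytes need to leave the marrow and to follow Ccl2, was at 0.98, 1 and 2.02 FPKM in PR3_KO, against 8.86, 14.82 and 8.24 FPKM in WT (log2 fold change -2.30 ± 0.25 SE, adjusted p = 0.000825 by limma). Each PR3_KO library was far below the lowest WT library. Cx3cr1, the fractalkine receptor of resident macrophages and patrolling monocytes, was at 1.23, 0.96 and 1.47 FPKM in PR3_KO and 7.57, 9.87 and 9.83 FPKM in WT. It had the smallest adjusted p of all members (log2 fold change -2.18 ± 0.14 SE, adjusted p = 0.000598 by limma). Ccr1, a receptor of myeloid cells for Ccl3, Ccl5, Ccl6 and Ccl9, was at 0.35, 0.21 and 0.84 FPKM in PR3_KO and at 2.23, 2.41 and 2.71 FPKM in WT. It fell too (log2 fold change -1.26 ± 0.18 SE, adjusted p = 0.00135 by limma).

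Cxcr4, the receptor of Cxcl12 on leukocytes and many tissue cells, was at 3.74, 5.31 and 4.98 FPKM in PR3_KO and at 9.01, 13.33 and 13 FPKM in WT (log2 fold change -1.16 ± 0.17 SE, adjusted p = 0.00163 by limma). Ackr3, the atypical receptor that removes Cxcl12, was at 15.3 ± 2.41 FPKM in PR3_KO and 16.3 ± 1.65 FPKM in WT, and the genotypes overlapped (log2 fold change -0.09 ± 0.13 SE, adjusted p = 0.595 by limma). Ackr3 was the most abundant receptor per length in both genotypes. Ackr2, an atypical receptor that clears inflammatory CC chemokines, was at 3.29 ± 0.58 FPKM in PR3_KO and 7.22 ± 1.64 FPKM in WT, with no overlap. It fell (log2 fold change -0.93 ± 0.17 SE, adjusted p = 0.00346 by limma).

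Cxcr2, the main chemokine receptor of neutrophils, did not pass (log2 fold change -0.59 ± 0.26 SE, adjusted p = 0.0872 by limma). It was at 1.92, 1.86 and 4.78 FPKM in PR3_KO and at 4.34, 4.52 and 4.59 FPKM in WT. PR3_KO 3 stood above every WT library and the other PR3_KO libraries below all of them. Without PR3_KO 3 the log2 fold change was -0.92 (adjusted p = 0.00446, limma). Cxcr1, its close relative, was at 0, 0 and 0.36 FPKM in PR3_KO and at 0.16, 0.29 and 0.21 FPKM in WT, with PR3_KO 3 again highest. The sum of the neutrophil marker list moved in the same way, at 43.03, 36.06 and 429.83 FPKM in PR3_KO and 190.95, 282.08 and 176.47 FPKM in WT. Its most abundant genes were S100a9 and S100a8. Of its 11 tested genes 0 fell and 1 rose, beside 41.1% and 11.7% of all tested genes. That gene, Ly6g, departed from the sum, at 1.53, 1.18 and 2.58 FPKM in PR3_KO and 0.41, 0.76 and 0.40 FPKM in WT. The part of the marker list in the Cxcr2 values was not tested.

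Of the 18 tested ligands 7 fell, 1 rose and 10 did not pass, and the 38.9% that fell is close to the 41.1% of all tested genes. The myeloid CC ligands Ccl3, Ccl4, Ccl6 and Ccl9 all fell and held the deepest falls, while Ccl5 did not pass. Ccl4 was at 1.15, 0.21 and 0.21 FPKM in PR3_KO and at 4.03, 16.44 and 6.18 FPKM in WT (log2 fold change -2.55 ± 0.46 SE, adjusted p = 0.00399 by limma). Ccl3, a macrophage product that often accompanies it, was at 0.86, 0.27 and 0.52 FPKM in PR3_KO and at 5.50, 10.57 and 6.19 FPKM in WT (log2 fold change -2.41 ± 0.24 SE, adjusted p = 0.000744 by limma). In both genes the genotypes did not overlap, and the mean in PR3_KO was 0.0589 of that in WT for Ccl4 and 0.0741 for Ccl3.

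Ccl6 and Ccl9 are rodent ligands of Ccr1 made by myeloid cells. Ccl6 was at 4.89, 4.31 and 9.09 FPKM in PR3_KO and at 20.56, 38.68 and 37.49 FPKM in WT (log2 fold change -2.24 ± 0.31 SE, adjusted p = 0.00143 by limma). Ccl9 was at 2.15, 1.42 and 1.64 FPKM in PR3_KO, against 7.18, 8.28 and 11.43 FPKM in WT (log2 fold change -1.85 ± 0.18 SE, adjusted p = 0.000735 by limma). Their means in PR3_KO were 0.189 and 0.194 of those in WT. Ccl5, which T cells, natural killer cells and platelets also supply, behaved otherwise, at 12.99, 11.96 and 16.32 FPKM in PR3_KO and 10.21, 52.13 and 22.90 FPKM in WT. WT 2 was high and WT 1 the lowest of all, and Ccl5 did not pass (log2 fold change -0.73 ± 0.53 SE, adjusted p = 0.280 by limma). Without WT 2 it was -0.16 (adjusted p = 0.714, limma), and without WT 1 it was -1.28 (adjusted p = 0.0167, limma).

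The monocyte attractants were low. Ccl2, the main ligand of Ccr2, was at 0.59, 0.69 and 0.85 FPKM in PR3_KO and at 1.21, 6.21 and 1.78 FPKM in WT. The genotypes did not overlap, but WT 2 alone held most of the level, and Ccl2 did not pass (log2 fold change -1.05 ± 0.40 SE, adjusted p = 0.0575 by limma). Without WT 2 it was smaller but past the threshold (-0.54, adjusted p = 0.0212, limma), as it was without WT 1 (-1.39, adjusted p = 0.0190, limma). Its relatives Ccl12, Ccl8 and Ccl7 averaged under 1 FPKM and are given with the low genes.

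**Figure D3:**
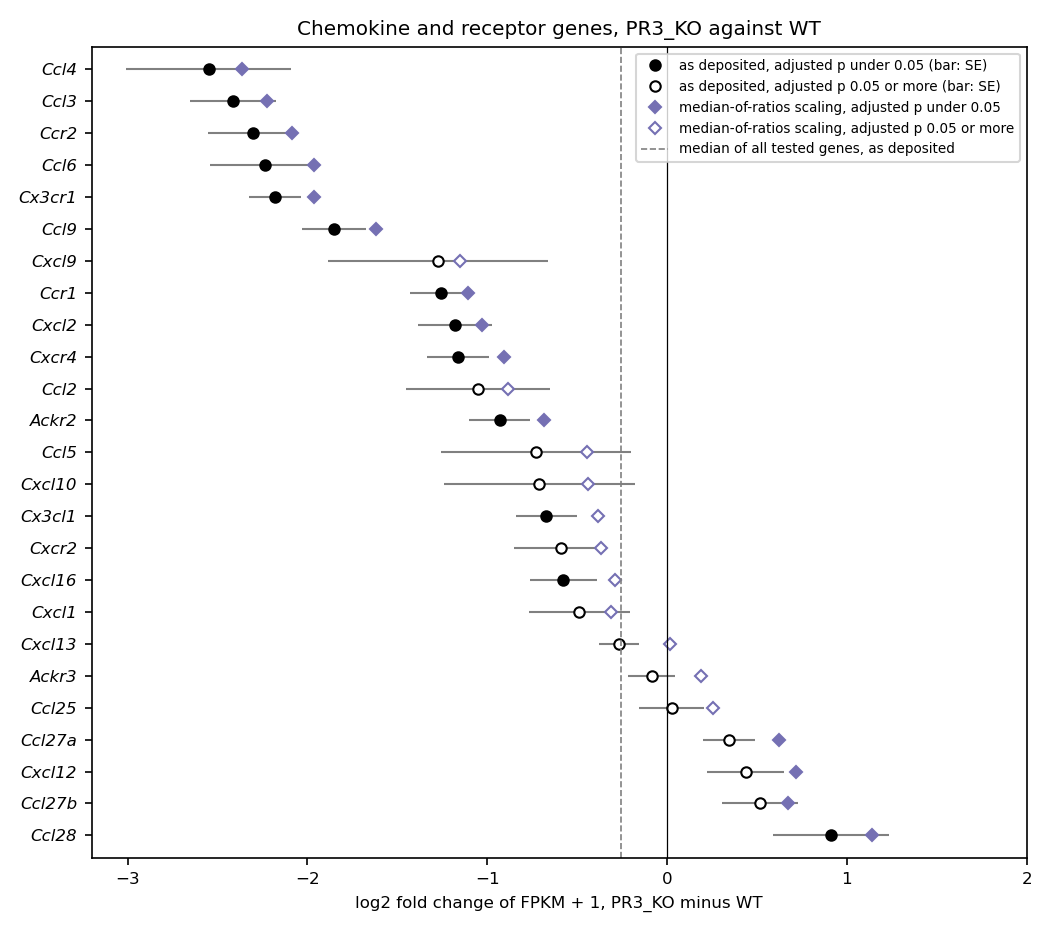
Log2 fold change of FPKM + 1, PR3_KO minus WT, for 25 of the tested genes, as deposited (circles with SE bars) and after median-of-ratios scaling (diamonds), filled where the adjusted p was under 0.05. Values as deposited run from -2.55 for Ccl4 to 0.91 for Ccl28. With scaling every gene moves to the right, so that Cx3cl1 and Cxcl16 lose their call and Ccl27a, Ccl27b and Cxcl12 gain one.

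Of the neutrophil-attracting CXC ligands, Cxcl1, Cxcl2 and Cxcl3 carried the NF-kappaB letters shown with their promoters, and the window of Cxcl15 held none. Cxcl5 had no window to search. Cxcl2, a macrophage and neutrophil product, was at 0.37, 0.13 and 1 FPKM in PR3_KO and at 2.32, 2.24 and 2.35 FPKM in WT. The WT libraries were tightly grouped and all higher, and Cxcl2 fell (log2 fold change -1.18 ± 0.21 SE, adjusted p = 0.00291 by limma). Cxcl1, also a ligand of Cxcr2, was at 1.06, 1.74 and 0.86 FPKM in PR3_KO and at 1.01, 3.27 and 2.38 FPKM in WT, with overlap (log2 fold change -0.49 ± 0.28 SE, adjusted p = 0.173 by limma). It passed without WT 1 (-0.79, adjusted p = 0.0192, limma). Cxcl3 was listed at 0 in every library. Cxcl5 reached at most 0.11 FPKM, and Cxcl15 was above 0 in PR3_KO 3 alone (0.09 FPKM).

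The interferon-inducible ligands of Cxcr3, which T cells and natural killer cells carry, were highest in a single library, WT 2. Cxcl10 was at 11.50, 9.80 and 7.92 FPKM in PR3_KO and at 8.70, 41.14 and 11.92 FPKM in WT. Outside WT 2 the genotypes overlapped, and Cxcl10 did not pass (log2 fold change -0.71 ± 0.53 SE, adjusted p = 0.293 by limma), with -0.07 without WT 2 (adjusted p = 0.749, limma). Cxcl9 was at 0.34, 0.12 and 0.11 FPKM in PR3_KO and at 0.73, 7.37 and 0.62 FPKM in WT, so that all WT libraries were higher and WT 2 far above the rest. It did not pass (log2 fold change -1.27 ± 0.61 SE, adjusted p = 0.119 by limma), but did without WT 2 (-0.50, adjusted p = 0.0257, limma). In exons, Cxcl10 shares 133 of 2252 bases with Art3 on the opposite strand (GENCODE M21), and since the use of strand is not stated those reads cannot be told apart.

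**Figure D4:**
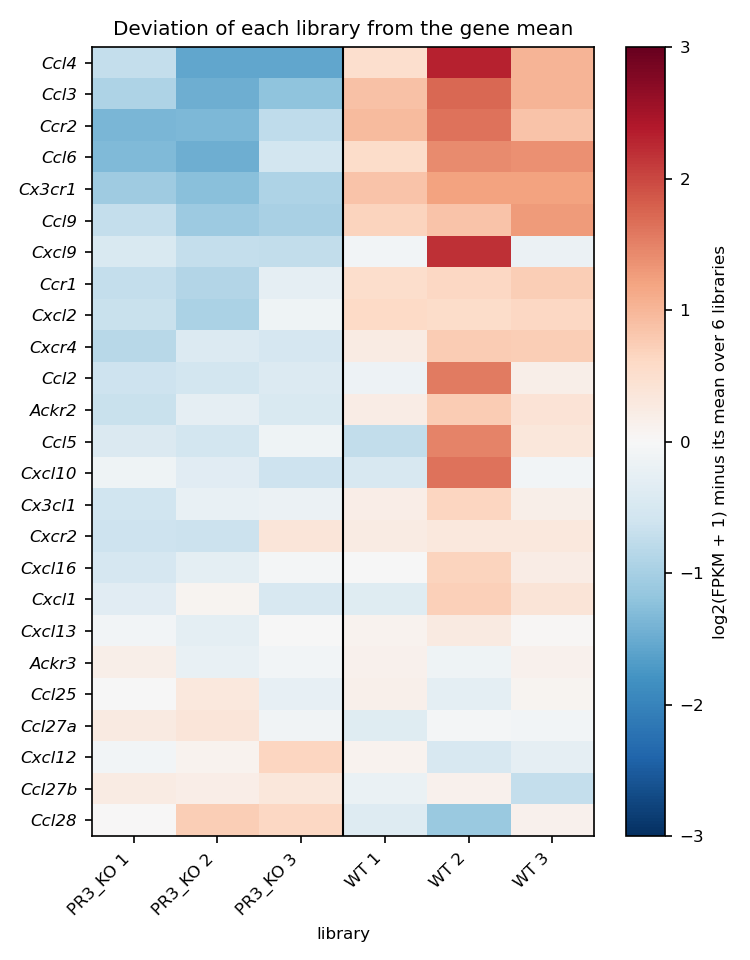
Colour shows each library's log2(FPKM + 1) minus the gene's mean over 6 libraries, for 25 of the tested genes sorted by fold change, with PR3_KO libraries left and WT libraries right of the line. WT 2 holds the darkest red cells, among them Ccl4, Cxcl9, Cxcl10, Ccl5 and Ccl2, and PR3_KO 3 is redder than its group for Cxcr2 and Cxcl12.

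WT 2 was the highest of the 6 libraries for 15 of the 26 members (57.7%), and for 46.6% of all tested genes. Without WT 2 and PR3_KO 3 together, the counts were 15 lower and 2 higher, and the shares of all tested genes were not taken for this setting. The 2 higher were the near-identical copies Ccl27a and Ccl27b, while Ccl28 did not pass (adjusted p = 0.204, limma). The members that fell did not need WT 2, with the exception of Cxcl16.

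Both membrane-bound ligands, which can act as adhesion molecules until proteases shed them, were the most abundant chemokine genes per length over the 6 libraries. Cx3cl1, or fractalkine, was at 28.90, 38.24 and 39.00 FPKM in PR3_KO and 50.95, 70.46 and 50.20 FPKM in WT, with no overlap (log2 fold change -0.67 ± 0.17 SE, adjusted p = 0.0126 by limma). After median-of-ratios scaling it was at -0.38 and did not pass (adjusted p = 0.0637, limma). Its receptor Cx3cr1 was at a mean 0.134 of the WT level in PR3_KO, while the ligand was at 0.618. Cxcl16, the scavenger receptor ligand of Cxcr6, was at 30.5 ± 4.86 FPKM in PR3_KO and 46.5 ± 11.6 FPKM in WT (log2 fold change -0.58 ± 0.19 SE, adjusted p = 0.0328 by limma). That call was lost after scaling (-0.29, adjusted p = 0.185, limma) and without PR3_KO 1, PR3_KO 2, WT 2 or WT 3 (adjusted p = 0.110, 0.0758, 0.0523 and 0.0660, limma). Cxcl16 shares 552 of 3021 exon bases with Zmynd15 on the opposite strand, so that its level is uncertain.

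Of the 6 tested homeostatic ligands, which tissues make without inflammation, 0 fell and 1 rose, beside 41.1% and 11.7% of all tested genes. After median-of-ratios scaling 0 fell and 4 rose, beside 23.7% and 23.8%. Ccl28, a mucosal epithelial chemokine for Ccr10, was at 4.75, 8.54 and 7.82 FPKM in PR3_KO and at 3.41, 1.64 and 5.26 FPKM in WT. It was the sole member that rose (log2 fold change 0.91 ± 0.32 SE, adjusted p = 0.0461 by limma), although PR3_KO 1 lay below WT 3. The call was lost without PR3_KO 2, PR3_KO 3, WT 1 or WT 2 (adjusted p = 0.137, 0.120, 0.0769 and 0.0907, limma), the last with a value of 0.58. Cxcl12, a stromal and podocyte product that holds progenitor cells in place, was at 21.80, 24.68 and 36.24 FPKM in PR3_KO and 24.93, 16.07 and 18.81 FPKM in WT, with overlap. It did not pass as deposited (log2 fold change 0.44 ± 0.21 SE, adjusted p = 0.117 by limma) and did after scaling (0.72, adjusted p = 0.0306, limma) and without WT 1 (0.60, adjusted p = 0.0484, limma). Without PR3_KO 3 it was at 0.23 (adjusted p = 0.339, limma).

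Cxcl13, the B cell attractant of lymphoid follicles, was at 26.4 ± 2.74 FPKM in PR3_KO and 32.0 ± 2.75 FPKM in WT. Its libraries did not overlap, by a narrow margin, and it did not pass (log2 fold change -0.27 ± 0.11 SE, adjusted p = 0.0753 by limma). After scaling it was at 0.02. Ccl25, the thymic and gut ligand of Ccr9, was at 3.95 ± 0.97 FPKM in PR3_KO and 3.84 ± 0.76 FPKM in WT (log2 fold change 0.03 ± 0.18 SE, adjusted p = 0.909 by limma). Its receptor Ccr9 stayed at or under 0.13 FPKM.

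Ccl27a and Ccl27b, ligands of Ccr10, are near-identical copies whose reads can be split between them, so both values are uncertain. Ccl27a was at 17.24, 18.44 and 13.13 FPKM in PR3_KO and at 10.74, 13.50 and 13.38 FPKM in WT (log2 fold change 0.34 ± 0.15 SE, adjusted p = 0.0791 by limma). Ccl27b was at 1.47, 1.40 and 1.64 FPKM in PR3_KO and at 0.82, 1.29 and 0.28 FPKM in WT (log2 fold change 0.52 ± 0.21 SE, adjusted p = 0.0680 by limma). Both passed after scaling (0.62 and 0.67, adjusted p = 0.0116 and 0.0234, limma), Ccl27a without PR3_KO 3 (0.48, adjusted p = 0.0290, limma) and Ccl27b without WT 2 (0.71, adjusted p = 0.00994, limma). Ccr10, the receptor they share with Ccl28, was at 0.143 ± 0.078 FPKM in PR3_KO and 0.187 ± 0.076 FPKM in WT.

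Many members lie in gene clusters, taken here, after their values were seen, as neighbours within 500 kb (GRCm38.p6). On chromosome 11, from 83525778 to 83664683, lie Ccl5, Ccl9, Ccl6, Ccl3 and Ccl4. All 5 were tested and 4 fell, beside 41.1% of all tested genes, and Ccl3 and Ccl4 passed the filter through WT alone. No other tested protein-coding gene lies in that span, and an effect of the locus was not tested. Another cluster of chromosome 11, from 82035577 to 82179812, holds Ccl2, Ccl7, Ccl11, Ccl12, Ccl8 and Ccl1, of which Ccl2 alone averaged 1 FPKM or more.

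**Figure D5:**
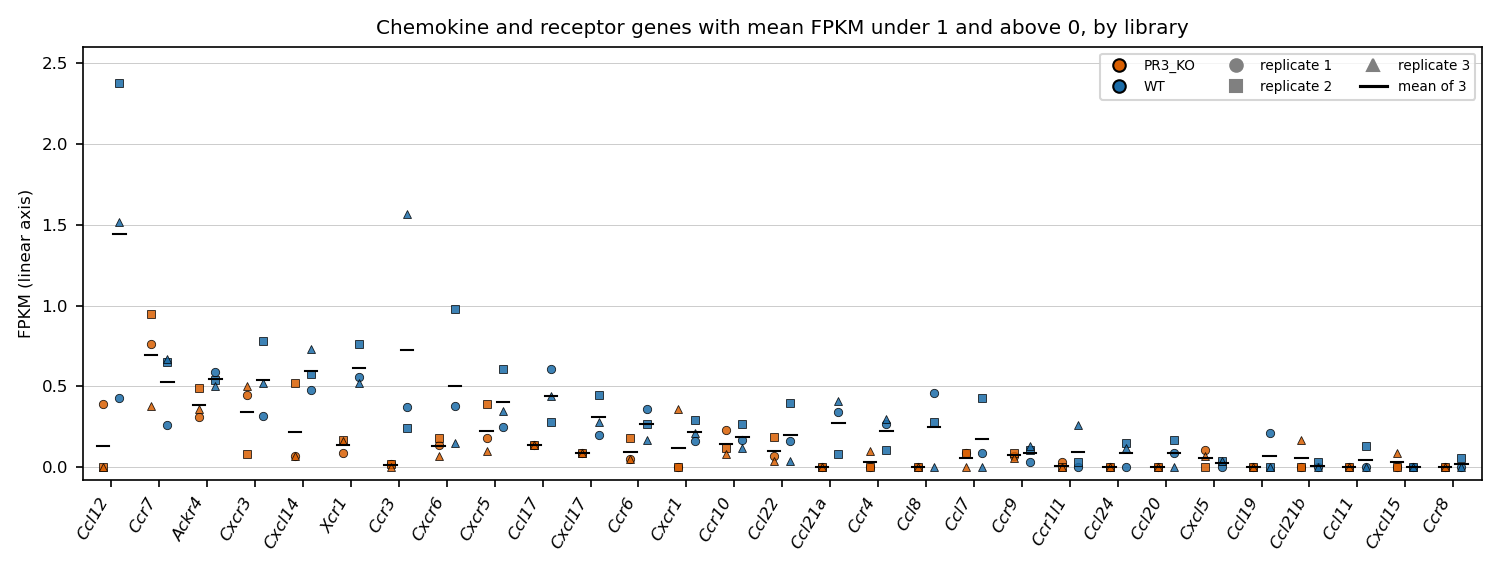
FPKM on a linear axis of the 29 members that averaged under 1 FPKM and were above 0 in some library, PR3_KO (orange) left of WT (blue), 1 point per library, bar at the mean of 3. Ccl12 in WT 2 (2.38 FPKM) and Ccr3 in WT 3 (1.57 FPKM) are the highest points, and most PR3_KO points lie near 0.

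Among the 34 members under the filter, 5 (Cxcl3, Ccl1, Ccl21c, Ccl21d and Ackr1) were listed at 0 in all libraries, and Ccl26 had no value at all. Of the other 29, 25 had a lower mean in PR3_KO and 4 a higher one. The share with a lower mean among all genes in this range was not taken. Among the 12388 tested genes 8632 had a negative log2 fold change. In 8 of the 29 (Ccl12, Ccr3, Xcr1, Ccl17, Cxcl17, Ackr4, Ccl21a and Ccr4) all PR3_KO libraries lay below all WT libraries, beside 21.3% of all genes in this range. For each of these 8 the exact two-sided permutation p was 0.1, the smallest that 3 against 3 libraries can give. In a limma fit without the filter 6 of the 29 fell (Xcr1, Ccl17, Cxcl17, Ccl21a, Ccr4 and Ccl12) and 0 rose, beside 13.4% of all genes under 1 FPKM that fell.

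Xcr1, the receptor that marks cross-presenting dendritic cells, was at 0.09, 0.17 and 0.16 FPKM in PR3_KO and at 0.56, 0.76 and 0.52 FPKM in WT. It had the smallest adjusted p of the low members (log2 fold change -0.50, limma without the filter, adjusted p = 0.00351). Ccl12, the mouse relative of Ccl2 that also binds Ccr2, was at 0.39, 0 and 0 FPKM in PR3_KO and 0.43, 2.38 and 1.52 FPKM in WT (log2 fold change -1.04, limma without the filter, adjusted p = 0.0350). Ccl17, a dendritic cell ligand of Ccr4, was at 0.14 FPKM in each PR3_KO library, which may be the value of a single fragment, and at 0.61, 0.28 and 0.44 FPKM in WT. Ccr4 itself was at 0, 0 and 0.10 FPKM in PR3_KO and 0.27, 0.11 and 0.30 FPKM in WT. Ccr3, the eosinophil receptor, was at 0.02, 0.02 and 0 FPKM in PR3_KO and 0.37, 0.24 and 1.57 FPKM in WT, mostly from WT 3, and did not pass (limma without the filter, adjusted p = 0.0692).

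Cxcl17, a mucosal chemokine, was at 0.09 FPKM in each PR3_KO library and at 0.20, 0.45 and 0.28 FPKM in WT. Ccl21a, which guides cells into lymph nodes, was listed at 0 in PR3_KO and at 0.34, 0.08 and 0.41 FPKM in WT, and it shares sequence with its copies Ccl21b, Ccl21c and Ccl21d. Its receptor Ccr7 was at 0.76, 0.95 and 0.38 FPKM in PR3_KO and at 0.26, 0.65 and 0.67 FPKM in WT. Ackr4, the scavenger of Ccl19, Ccl21 and Ccl25, was at 0.387 ± 0.093 FPKM in PR3_KO and 0.543 ± 0.045 FPKM in WT.

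The genotypes overlapped for the lymphocyte receptors Cxcr3, Cxcr6 and Cxcr5. Cxcr3 was at 0.45, 0.08 and 0.50 FPKM in PR3_KO and 0.32, 0.78 and 0.52 FPKM in WT, and Cxcr6, the receptor for Cxcl16, at 0.14, 0.18 and 0.07 FPKM in PR3_KO and 0.38, 0.98 and 0.15 FPKM in WT. Cxcr5, the receptor for Cxcl13, was at 0.18, 0.39 and 0.10 FPKM in PR3_KO and 0.25, 0.61 and 0.35 FPKM in WT. The abundant ligands Cxcl10, Cxcl16 and Cxcl13 thus had receptors under 1 FPKM in every library. The rest (Cxcl14, Ccr6, Ccl22, Ccl8, Ccl7, Ccr1l1, Ccl24, Ccl20, Ccl19, Ccl21b, Ccl11 and Ccr8) stayed at or under 0.73 FPKM, the highest being Cxcl14 in WT 3.

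Of the relatives whose symbols do not follow the family pattern, 4 of 9 tested fell and 1 rose, which is near the 41.1% and 11.7% of all tested genes. Ccrl2, a receptor-like protein that presents chemerin, was at 10.4 ± 1.12 FPKM in PR3_KO and 25.5 ± 5.68 FPKM in WT (log2 fold change -1.20 ± 0.17 SE, adjusted p = 0.00127 by limma). Cmklr1, the chemerin receptor of macrophages, fell with it (-1.19, adjusted p = 0.00146, limma). Pf4, a platelet chemokine that lies among the Cxcl1 to Cxcl5 genes on chromosome 5, was at 0.71, 0.85 and 2.04 FPKM in PR3_KO and 3.14, 4.90 and 7.38 FPKM in WT (-1.47, adjusted p = 0.00566, limma). Mif, an atypical ligand of Cxcr2 and Cxcr4 that tubules also express, rose to 934 ± 152 FPKM in PR3_KO, against 526 ± 85.1 FPKM in WT (log2 fold change 0.83 ± 0.18 SE, adjusted p = 0.00695 by limma).

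Receptor signalling genes fell in 27 of 32 tested and rose in 1, with a median log2 fold change of -0.72, and after scaling 18 fell and 2 rose. Gng2, a G protein subunit, and Lyn, a Src-family kinase of leukocytes, both fell (log2 fold change -1.66 each, adjusted p = 0.000684 and 0.000735, limma), as did the G protein subunit gene Gnaq and the focal adhesion kinase gene Ptk2 (-0.99 and -0.92, adjusted p = 0.000773 and 0.000995, limma). Of 13 genes that switch receptors off, 12 fell and 0 rose, with a median of -0.95 and 11 lower after scaling. Rgs19, which speeds G protein inactivation, was at 3.43 ± 0.25 FPKM in PR3_KO and 13.5 ± 3.30 FPKM in WT (-1.69, adjusted p = 0.000742, limma). Arrb2, the beta-arrestin that internalises receptors, fell, as did the receptor kinases Grk2 and Grk4 (log2 fold changes -1.42, -0.83 and -0.79, adjusted p = 0.000853, 0.00163 and 0.00163, limma).

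Of 26 migration genes 20 fell and 0 rose, with a median of -0.80, and after scaling 14 fell and 4 rose. Coro1a, an actin regulator of leukocytes, was at 12.1 ± 1.94 FPKM in PR3_KO and 59.6 ± 21.7 FPKM in WT (-2.16, adjusted p = 0.000838, limma). Prex1, a Rac activator downstream of chemokine receptors, fell, as did the cytoskeletal kinase Rock1 and the adaptor Crk (log2 fold changes -1.57, -1.30 and -0.85, adjusted p = 0.000840, 0.000831 and 0.000816, limma). Of 22 tested inducers of chemokines and their receptors 18 fell and 0 rose, with a median of -1.06 and 17 lower after scaling. The TNF receptor gene Tnfrsf1b fell, with the endotoxin receptor gene Tlr4, the interferon receptor gene Ifngr1 and the interleukin receptor gene Il1r1 (log2 fold changes -1.78, -1.26, -1.10 and -1.08, adjusted p = 0.00143, 0.000938, 0.000935 and 0.00123, limma).

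Genes that process or tether chemokines were mixed, with 7 of 18 lower and 2 higher, a median of -0.31 and -0.03 after scaling. Adam17, a sheddase of Cx3cl1, was at 6.80 ± 0.12 FPKM in PR3_KO and 15.1 ± 2.51 FPKM in WT (-1.04, adjusted p = 0.000910, limma). Mmp12, a macrophage protease that clips chemokines, was at 0.47 ± 0.17 FPKM in PR3_KO and 19.0 ± 7.50 FPKM in WT (-3.71, adjusted p = 0.000598, limma), and Mmp14 and the syndecan Sdc3 fell (-1.40 and -1.48, adjusted p = 0.000992 and 0.000912, limma). The heparan sulfate genes Gpc1 and Hs6st1, named after their values were seen, rose (0.60 and 0.58, adjusted p = 0.00705 and 0.00835, limma). Over all tested genes 41.1% were lower and 11.7% higher as deposited, and after scaling 23.7% were lower and 23.8% higher, and the counts of each list stand beside these shares.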

How the data were processed

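The authors deposited a table for each library with FPKM as its single value column, per the file headers, to 2 decimals and without counts. Per the labels' protocols, Trizol RNA was enriched for poly(A) transcripts and read on a DNBSEQ machine. Bowtie2 and build GRCm38.p6 are named in the submitters' processing notes, while the quantifier, annotation and strand use are not stated there. Of 22064 gene IDs 18822 had a value, and 18770 of these matched a symbol in a RefSeq table of that build.

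Genotypes were compared with limma 3.58.1 and statmod 1.5.0 (R 4.3.3) on log2(FPKM + 1) in the 12388 genes averaging 1 FPKM or more. Genotype was the sole term, with trend and robust moderation, Benjamini-Hochberg adjustment and a threshold of 0.05. Lower genes had an exact permutation test (scipy 1.17.1). The fit was tested on simulated data. Python 3.11.15, pandas 2.3.3, numpy 2.4.6 and matplotlib 3.10.9 were used. The members, roles and lists were chosen with earlier results of these data known. The rule for naming was every member, and in each pathway list the 4 genes with the smallest adjusted p. Alternatives changed the pseudocount, filter, scaling, trend, covariates and libraries. Of the tested members, 1 counts in the totals and is not reported here.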

Additional observations from a re-analysis of the deposited data

How the results depend on the processing

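The number of members lower in PR3_KO, 13 as reported, was 12 to 16 when each library was left out in turn, 15 without PR3_KO 3 and WT 2 together, 11 after median-of-ratios scaling, 13 with the replicate block and 0 once proximal tubule markers entered as a covariate. The number higher, 1 as reported, was 0 to 1 when libraries were left out, 0 with a pseudocount of 0.1, without the filter, with equal FPKM sums, with the replicate block or with the covariate, 4 after median-of-ratios scaling and 2 without PR3_KO 3 and WT 2 together. The shares of all tested genes were not taken when libraries were left out. The gene that rose changed within the counts of higher members. It was Ccl28 as reported, but Ccl27a without PR3_KO 3, Cxcl12 without WT 1 and Ccl27b without WT 2. Of the 14 called members 12 kept their call whichever library was left out, the exceptions being Cxcl16 and Ccl28, and none of the 14 changed direction there. Under the covariate Cxcl16 turned to 0.23 and Ccl28 to -0.0862, and the cause was not tested.

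After median-of-ratios scaling, members under 1 FPKM with no overlap went to 5, where the share of all genes was not taken. Higher genes then numbered 2 for relatives with other symbols, 2 for receptor signalling, 4 for migration and 4 for processing. Of all tested genes 23.8% were higher after scaling. The replicate block changed 1 call of a tested member, that of Ccl28, to an adjusted p of 0.0853 (limma). Depth limits the low members, for which 0.14 FPKM or less may be a single fragment.
Deviations of same-numbered libraries from their genotype means correlated at 0.07, 0.27 and -0.09, within the range of -0.26 to 0.32 of the other pairs. With 3 libraries per genotype these values cannot decide whether the numbers pair the libraries.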
